A study of Oryza sativa with 12 samples.

Results

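Leaves of the rice mutant osnox2 were compared with leaves of wild-type plants (WT) after both had been left without water. The comparison uses 6 of the 12 arrays in the series, 3 of osnox2 and 3 of WT, all taken on day 15 of the drought treatment, and every array was used that the labels put in these groups. WT is Oryza sativa ssp. Japonica cv. Dongjin, and osnox2 is a mutant that carries a T-DNA insertion. The mutant is represented by this insertion mutant alone, without a complemented plant or a second allele among the samples, so the effect of the disrupted gene cannot be told apart from that of any other difference between the mutant plants and WT. Plants grew in soil in a greenhouse, with osnox2 and WT sharing a pot so that both met the same dryness, and they were 10 weeks old when watering stopped. Soil moisture was 8.5 ± 2.1% at the day 15 harvest, against 47.3 ± 1.9% on day 0. RNA came from the youngest leaves that had fully expanded, and the labels give the age of the plants as 2.5 months. The other 6 arrays, 3 of each genotype on day 0 (control), were read only beside the drought result. The labels call the 3 arrays of a group biological replicates without saying how many plants or pots stand behind each, so the p-values measure the spread between these arrays.

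The subject of the study, per the series title, is OsRbohA, an NADPH oxidase of the rice plasma membrane. NADPH oxidases of plants, also called respiratory burst oxidase homologues (Rboh), pass electrons across the plasma membrane to oxygen and so produce superoxide outside the cell, which is turned into hydrogen peroxide. These reactive oxygen species act as signals in stomatal closure, defence and other responses to stress, and in excess they damage proteins and membranes. Heat shock proteins are chaperones that bind unfolded proteins under heat and other stresses, dehydrins and other LEA proteins accumulate in drying tissue, and JAZ proteins repress the targets of the hormone jasmonate.

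All values are log2 signals, so a difference of 1 between groups is a 2-fold difference in signal. A difference is osnox2 minus WT under drought, given ± SE with n = 3 arrays per group, and a probe set was called when its adjusted p in limma was under 0.05. In whole leaves, a lower value can come from fewer cells of a type or from less RNA per cell, and these cannot be told apart. The median log2 signal of the 6 arrays lay between 5.18 and 5.43. Correlations between arrays were 0.959 to 0.964 within osnox2, 0.947 to 0.967 within WT and 0.930 to 0.960 between the genotypes. The label of green leaf was checked with the 13 genes for light harvesting, photosystems and Rubisco on the array, whose median was 14.4. The 11 genes for seed storage proteins had a median of 3.73, although their highest member stood at 12.1. Clock genes, chosen after their values were seen, were read to compare the time of day. The morning gene LHY lay between 8.13 and 8.99 on the 6 drought arrays, against 13.5 to 13.8 on the 3 control arrays that stood apart in the series. The evening gene PCL1 read 14.33 to 14.62, against 5.59 to 6.16. On the remaining control arrays LHY read 7.31 to 8.26 and PCL1 14.68 to 14.99. PCL1 lay below that range on all 6 drought arrays, and LHY lay above it on all but replicate 3 of WT. Those control arrays are taken below as sharing the drought arrays' clock state, a match that is only approximate. One probe set of PRR37 was split within the drought arrays, at 7.87, 7.66 and 8.07 on replicates 1 and 2 of osnox2 and replicate 1 of WT and at 9.90 to 10.04 on the others, while its second probe set read 12.62 to 12.97 on all 6. LHY did not overlap between the genotypes, with a difference of 0.39 ± 0.17 (adjusted p = 0.459). Nor did GI, at -0.16 ± 0.06 (adjusted p = 0.379), or 1 probe set of PRR73, at -0.11 ± 0.06 (adjusted p = 0.594). The other clock probe sets read did overlap, and over all probe sets tested 17.1% did not. Replicate 2 of osnox2 stood with WT for some transcripts described further on, so the fit was repeated without it.

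Of 28764 probe sets tested, 82 differed between osnox2 and WT, 59 of them higher and 23 lower in osnox2. This is 0.285% of the probe sets tested, or 0.205% for those higher and 0.08% for those lower. The arrays of the groups did not overlap for any of the 82, which the call on these same 6 arrays largely fixed. Over all probe sets tested, 17.1% did not overlap. At an unadjusted p under 0.05 the count was 3221 (11.2%), with 1700 higher (5.91%) and 1521 lower (5.29%), and the median difference of all probe sets tested was 0.0003. The median size of the 82 differences was 1.55. At least 2-fold differences made up 64 of them, at least 4-fold differences 33, and at least 16-fold differences 10, all of which were higher in osnox2. A single gene was matched by 54 of the 82 probe sets, which gave 51 genes, 11 of them named in the annotation, and 28 match none (34.1%, against 37.8% of all probe sets tested).

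The count of 82 depended on which arrays were used. It was 16 without replicate 2 of osnox2 (10 higher, 6 lower), 5 without replicate 1 (all higher) and 7 without replicate 3. Leaving out a WT array gave 76 without replicate 1, 22 without replicate 2 and 27 without replicate 3. Of the 82 probe sets, 4 were called in each of these 6 fits and 30 in none of them. Without replicate 2 of osnox2 all 82 kept their direction, 59 became larger, and the largest shift of any was 0.545. The 82 had passed a test that held replicate 2 and required a small spread within the group, so this stability was largely fixed by how they were chosen. Of the 82, 12 were also called without it. Of the 23 called genes described by name or locus identifier below, METK3, LOC4331398 and LOC4333647 were still called without it, and the other 20 were not, with adjusted p between 0.0881 and 0.179.

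**Figure D1:**
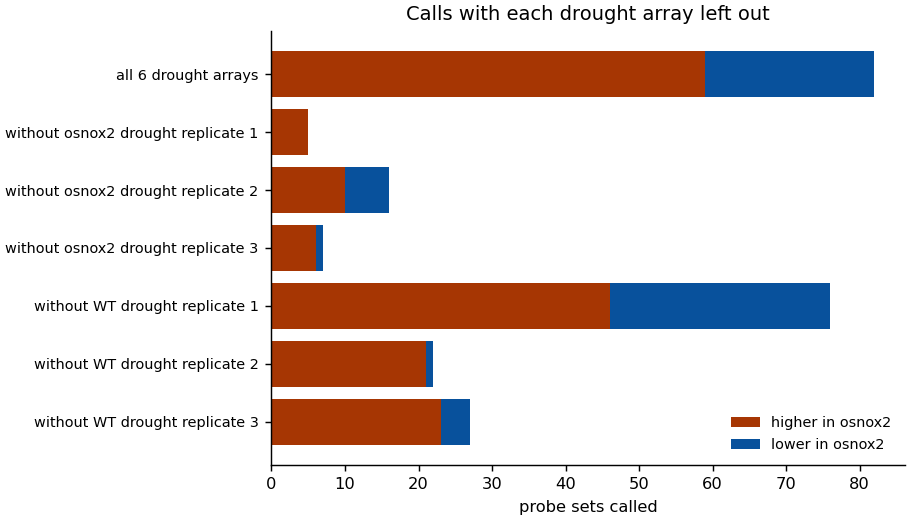
Probe sets called (adjusted p under 0.05 in limma) with all 6 drought arrays and with each array left out in turn, counted separately as higher and lower in osnox2. The count was 82 with all arrays and between 5 and 76 with 1 array left out.

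Heat shock protein genes made up 4 of the 8 named genes that were higher in osnox2, while the 2 heat shock lists hold 32 of the 2063 named genes tested (1.55%). HSP24.1, a small heat shock protein, read 12.57, 12.09 and 11.99 in osnox2 and 11.05, 10.75 and 10.63 in WT. Every osnox2 array lay above every WT array, with a difference of 1.41 ± 0.18 (adjusted p = 0.0424). In control plants HSP24.1 read 13.14, 13.14 and 9.27 in osnox2 and 10.98, 8.35 and 8.27 in WT, where replicate 3 of osnox2 lay among the WT arrays. The WT array above it, at 10.98, was of the other clock state. HSP24.1 differed by 0.96 between control arrays of the drought arrays' clock state and by 2.16 between those of the other state. HSP18.0, another small heat shock protein, read 13.17, 13.07 and 13.12 in osnox2 against 12.32, 12.56 and 12.42 in WT. Its arrays were tight in both genotypes, and the difference was 0.69 ± 0.08 (adjusted p = 0.0403). Other probe sets of HSP18.0 gave differences of 0.03 and 0.19 and were not called.

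HSP81-3 and HSP81-1 belong to the HSP90 family of chaperones. HSP81-3 read 12.89, 12.70 and 12.68 in osnox2 and 11.85, 11.81 and 11.71 in WT, a difference of 0.97 ± 0.09 (adjusted p = 0.0180). HSP81-1, among the brightest signals on the arrays, read 14.18, 14.21 and 14.16 in osnox2 and 13.61, 13.49 and 13.55 in WT, a difference of 0.63 ± 0.06 (adjusted p = 0.0185). In both genes the arrays of a group lay closer to one another than to any array of the other group. Other probe sets of HSP81-3 gave differences of 0.24, 0.54 and 0.41 and were not called. Those at 0.24 and 0.41 were brighter than the called probe set, at means of 14.71 and 13.64 in osnox2 against 12.76. The other probe set of HSP81-1, much dimmer at a mean of 7.82 in osnox2, gave -0.11 (adjusted p = 0.949), so the sizes rest on 1 probe set each. Without replicate 2 of osnox2 none of these 4 heat shock genes stayed under an adjusted p of 0.05, with values of 0.0881 for HSP81-3, 0.120 for HSP81-1 and 0.151 for both small heat shock protein genes.

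Of 14 measured genes on the list of small heat shock proteins, 2 were called higher and none lower, and the median difference of the list was 0.42, against -0.0034 over all 14897 genes tested. The list was positive for 11 genes, and at an unadjusted p under 0.05 it held 7 genes with a higher and 2 with a lower value in osnox2. Over all genes tested, 49.3% were positive, and at the same p 6.60% were higher and 5.95% lower. The pair with lower values, named after their values were seen, are also small heat shock proteins. The gene hsp17.9 read 11.73, 12.20 and 11.97 in osnox2 and 12.61, 12.65 and 12.54 in WT (-0.63 ± 0.12, adjusted p = 0.124), and HSP18.8 read 10.81, 10.57 and 10.74 against 11.57, 11.11 and 11.42 (-0.66 ± 0.14, adjusted p = 0.143). Neither passed the test, although the arrays did not overlap in either gene. Among 18 genes for larger heat shock proteins and chaperones, 1 was called by the probe set used for the list (2 by any probe set), and the median difference was 0.05. Among 20 heat stress transcription factors none was called, the median was 0.09, and 5 had a higher value at an unadjusted p under 0.05.

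JAZ7, a repressor of jasmonate responses, was higher in osnox2. It read 13.84, 13.79 and 13.93 in osnox2 and 13.12, 13.15 and 13.19 in WT, a difference of 0.70 ± 0.07 (adjusted p = 0.0180). Its control arrays ran the other way on average, at 12.77, 12.58 and 13.28 in osnox2 and 12.93, 13.27 and 13.56 in WT, but overlapped. JAZ7 differed by -0.13 between control arrays of the drought arrays' clock state and by -0.25 between those of the other state. The genotype difference of JAZ7 under drought exceeded that in control plants by 1.07 ± 0.26, with an unadjusted p of 0.00206 and an adjusted p of 0.986 over all probe sets. Of 31 measured genes of jasmonate synthesis and signalling, JAZ7 was the only one called, and the median difference of the list was 0.51 (0.38 without replicate 2 of osnox2). The list was positive for 24 genes, and 9 had a higher and 2 a lower value at an unadjusted p under 0.05. Over all genes tested the shares were 49.3% positive, 6.60% higher and 5.95% lower. JAZ8, chosen after its values were seen, read 10.52, 10.69 and 10.70 in osnox2 and 9.61, 8.52 and 8.21 in WT (1.86 ± 0.33, adjusted p = 0.101). LOX5, a lipoxygenase chosen in the same way, read 10.75, 10.43 and 9.33 against 8.42, 9.16 and 8.55 (1.46 ± 0.38, adjusted p = 0.210). JAZ2, also a JAZ repressor, had a difference of -1.88 ± 0.47 (adjusted p = 0.193). None of the last 3 genes passed the test.

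**Figure D2:**
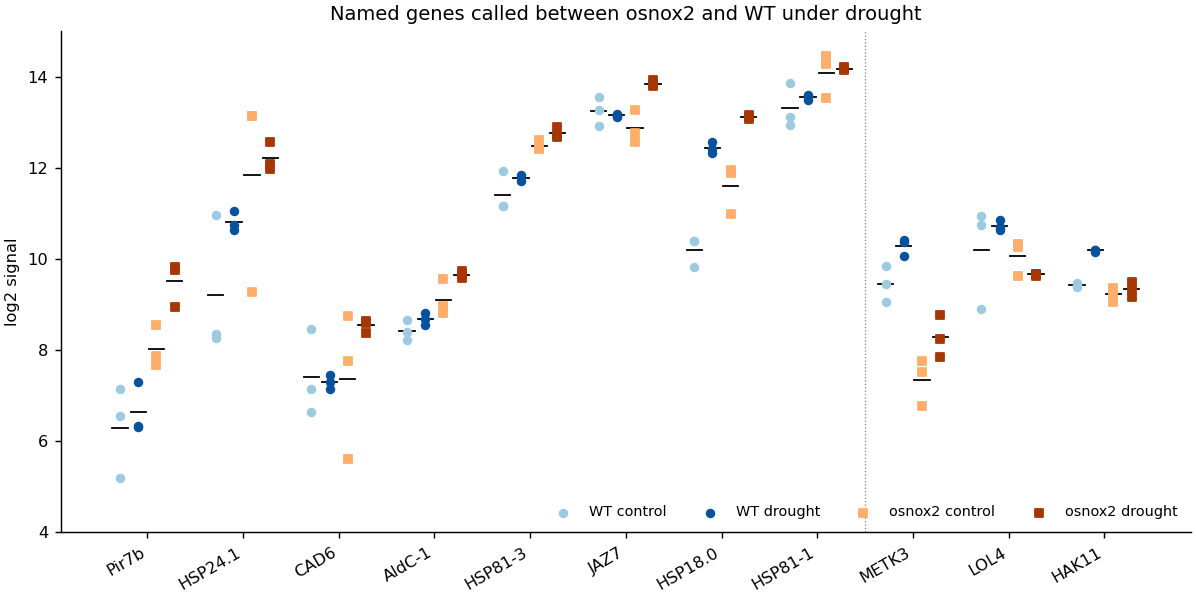
Log2 signal of the 11 named genes that were called, with 1 point per array in each of the 4 groups, a bar at the group mean, and the genes lower in osnox2 right of the dotted line. For every gene the 3 osnox2 drought arrays lie on one side of the 3 WT drought arrays, as the choice of the genes required.

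Pir7b, CAD6 and AldC-1, the other named genes higher in osnox2, encode enzymes. Pir7b, which encodes an esterase known from the defence response of rice, showed the largest difference of any named gene. It read 9.83, 8.94 and 9.75 in osnox2 and 6.32, 7.30 and 6.33 in WT, with replicate 2 of each genotype nearer the other, and the difference was 2.86 ± 0.35 (adjusted p = 0.0403). Without replicate 2 of osnox2 it was 3.15 (adjusted p = 0.0881). In control plants Pir7b read 7.67, 7.88 and 8.55 in osnox2 and 5.18, 7.14 and 6.55 in WT, again without overlap. Among 38 measured defence genes Pir7b was the only one called, and the median of that list was 0.18.

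CAD6, a member of the cinnamyl alcohol dehydrogenases that make lignin precursors, read 8.59, 8.38 and 8.64 in osnox2 and 7.45, 7.15 and 7.29 in WT. The groups were well apart, with a difference of 1.24 ± 0.16 (adjusted p = 0.0424). In control plants the genotypes overlapped and differed by -0.05 over all arrays, by 0.94 within the clock state of the drought arrays and by 0.04 within the other. Of 19 lignin genes measured, CAD6 was the only one called, and the list's median was -0.19. AldC-1, a fructose-bisphosphate aldolase, read 9.75, 9.57 and 9.65 in osnox2 and 8.80, 8.56 and 8.68 in WT, a difference of 0.98 ± 0.12 (adjusted p = 0.0403). Other probe sets of AldC-1 gave 0.18 and 0.28 and were not called. Both were brighter than the called probe set, at means of 12.23 and 10.54 in osnox2 against 9.66.

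The named genes lower in osnox2 were METK3, LOL4 and HAK11. METK3, an S-adenosylmethionine synthetase, makes the methyl donor of the cell, which is also the starting point of ethylene synthesis. It read 7.84, 8.77 and 8.25 in osnox2 and 10.07, 10.42 and 10.38 in WT. Even the highest osnox2 array lay well below the lowest WT array. The difference was -2.00 ± 0.24 (adjusted p = 0.0403) and METK3 was still called without replicate 2 of osnox2, at -2.24 (adjusted p = 0.0406). Of the 6 fits that left out an array, only this 1 called METK3, and the highest adjusted p among them was 0.1485. In control plants it read 7.53, 7.77 and 6.76 in osnox2 and 9.85, 9.46 and 9.07 in WT, a difference of -2.10, without overlap.

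LOL4, a zinc finger protein related to the cell death regulator LSD1 of Arabidopsis, read 9.68, 9.63 and 9.68 in osnox2 and 10.70, 10.85 and 10.63 in WT. The osnox2 arrays agreed closely, and the difference was -1.06 ± 0.10 (adjusted p = 0.0180). In control plants LOL4 overlapped between the genotypes and differed by -0.12 over all arrays, by -1.22 within the clock state of the drought arrays and by 1.41 within the other. HAK11, a potassium transporter, read 9.17, 9.50 and 9.34 in osnox2 and 10.21, 10.15 and 10.21 in WT, a difference of -0.85 ± 0.11 (adjusted p = 0.0496). In control plants the HAK11 difference was -0.20, and drought and control differences were apart by -0.65 ± 0.18 (unadjusted p = 0.00456, adjusted p = 0.986). Of 24 potassium transport genes HAK11 was the only one called, and the list's median was 0.10.

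The largest differences of all belonged to genes without a name in the annotation. LOC4331398 on chromosome 3 read 12.95, 12.61 and 12.74 in osnox2 and 3.85, 4.26 and 4.14 in WT. Its second probe set read 13.28, 12.97 and 13.27 against 4.65, 4.78 and 4.97. The transcript was bright on all osnox2 arrays and dim on all WT arrays, and the difference was 8.68 ± 0.17 (adjusted p = 3.17e-06) by one probe set and 8.37 ± 0.15 by the other. Both were called in each of the 6 fits that left out an array. Since the WT signal is dim, the size depends on how dim signals are treated, and with 64 added to the signal before log2 it was 6.44. In control plants LOC4331398 read 13.21, 13.10 and 12.75 in osnox2 and 4.52, 3.62 and 5.01 in WT.

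LOC4340325 on chromosome 6 read 11.50, 11.33 and 11.71 in osnox2 and 2.21, 5.02 and 4.69 in WT, a difference of 7.54 ± 0.69 (adjusted p = 0.0180) that was 5.15 with the offset of 64. Another probe set of LOC4340325 gave 0.12 (adjusted p = 0.846), so the probe sets of this gene disagree. LOC4337401 on chromosome 4 read 8.09, 7.51 and 7.89 against 3.09, 3.60 and 2.59 (4.74 ± 0.41, adjusted p = 0.0180; 2.00 with the offset). For all 10 differences of at least 16-fold the WT mean was under 6, which is a signal of 64, and 6 of the 10 probe sets match no gene.

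LOC4343616, LOC4351983 and LOC4333647 followed among the rises. LOC4343616 read 9.49, 8.76 and 8.36 in osnox2 and 6.46, 6.80 and 6.13 in WT (2.40 ± 0.32, adjusted p = 0.0496). In control plants its groups overlapped, and the difference was -1.67, with -1.17 in the clock state of the drought arrays and -0.34 in the other. LOC4351983 read 8.50, 8.91 and 8.79 against 6.29, 6.78 and 6.35 (2.26 ± 0.21, adjusted p = 0.0180). LOC4333647 read 9.40, 9.62 and 9.52 against 7.43, 7.31 and 7.09 (2.23 ± 0.15, adjusted p = 0.00582) and was also called without replicate 2 of osnox2 (adjusted p = 0.0406). In these 3 genes the lowest osnox2 array lay well above the highest WT array.

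Of the unnamed genes lower in osnox2, LOC4324858 showed the largest difference. It read 6.13, 6.63 and 7.02 in osnox2 and 9.01, 9.74 and 10.31 in WT, with a difference of -3.09 ± 0.37 (adjusted p = 0.0403), and its second probe set gave -2.99. In control plants LOC4324858 differed by -3.05 in the clock state of the drought arrays, close to its difference under drought, by 3.48 in the other state and by -0.28 over all control arrays. LOC9272115 read 7.36, 8.04 and 7.66 against 10.10, 9.56 and 10.45 (-2.35 ± 0.27, adjusted p = 0.0360), but another probe set gave -0.34 and was not called. LOC4327205 read 5.10, 5.68 and 5.57 against 7.53, 7.46 and 7.47 (-2.03 ± 0.25, adjusted p = 0.0403), and its other probe set gave -0.62 (adjusted p = 0.626). LOC4331443, LOC4337421 and LOC4336928 differed by -1.81 ± 0.24, -1.58 ± 0.21 and -1.51 ± 0.18, with adjusted p of 0.0484, 0.0449 and 0.0403. A second probe set of LOC4331443 gave -0.55 (adjusted p = 0.556).

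Since fewer than 10 named genes were called in each direction, those with the next smallest p are given although they did not pass. APX2, an ascorbate peroxidase that removes hydrogen peroxide, read 11.55, 11.32 and 11.29 in osnox2 and 10.54, 10.45 and 10.09 in WT (1.03 ± 0.14, adjusted p = 0.0565). Its other probe sets gave 0.00, -0.39 and 0.19. Those at 0.00 and 0.19 were brighter, at means of 14.67 and 14.58 in osnox2 against 11.39. DJC27, a protein with the J domain of co-chaperones, differed by 0.86 ± 0.12 (adjusted p = 0.0565). With values lower in osnox2, OsTIP2;2, an aquaporin of the vacuolar membrane, read 11.94, 11.84 and 12.30 against 12.90, 13.24 and 12.98 (-1.01 ± 0.14, adjusted p = 0.0565). GME-1, an enzyme on the path to ascorbate, differed by -0.43 ± 0.07 (adjusted p = 0.0784). For CYCP3-1, RSs2, CBL9, YSL14 and CEBIP the differences were -0.89, -1.25, -1.54, -0.74 and -1.07, with adjusted p between 0.0794 and 0.0989. These encode a cyclin, a sucrose synthase, a calcium sensor, a metal transporter of the yellow stripe-like family and a receptor that binds chitin. The groups did not overlap in any of these 9 genes, which had been picked by their small p on the same arrays.

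The disrupted gene itself could not be followed, because the annotation used gives no gene the name OsRbohA. A search by symbol found 1 NADPH oxidase gene, RBOHB, which read 12.11, 12.16 and 12.16 in osnox2 and 12.61, 12.60 and 12.28 in WT. The osnox2 arrays were the lower ones, but the difference of -0.36 ± 0.10 did not pass the test (adjusted p = 0.259).

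Genes for enzymes that handle reactive oxygen species showed no call. The 25 genes for superoxide dismutases, catalases and peroxidases had a median difference of -0.01, with 2 higher and none lower at an unadjusted p under 0.05. The 44 genes for glutathione transferases, glutaredoxins and thioredoxins had a median of 0.02, with 2 higher and 6 lower. At this p 6.60% of all genes tested were higher and 5.95% lower. Among 24 genes of ABA synthesis, breakdown and signalling the median was -0.08, and among 20 aquaporins it was 0.01, again with no call in either list. The median was 0.34 for 21 genes of nitrogen transport and assimilation and 0.13 for 48 genes of phosphate, iron, zinc and copper transport. It was -0.10 for 44 auxin genes, -0.09 for 28 cytokinin genes, -0.07 for 49 genes of sucrose and starch and 0.07 for 81 genes of calcium and MAP kinase signalling. None of these 6 lists held a call either. The 12 tested genes of light harvesting, photosystems and Rubisco had a median of -0.07, and 25 cytosolic ribosomal protein genes one of 0.01. The other 13 lists (metallothioneins, ethylene, gibberellin, brassinosteroid, strigolactone, germin-like proteins, chlorophyll, carotenoids, expansins and cellulose synthases, histones and cell cycle, clock and flowering, seed storage proteins, DREB factors) held no call, with medians from -0.14 to 0.13.

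**Figure D3:**
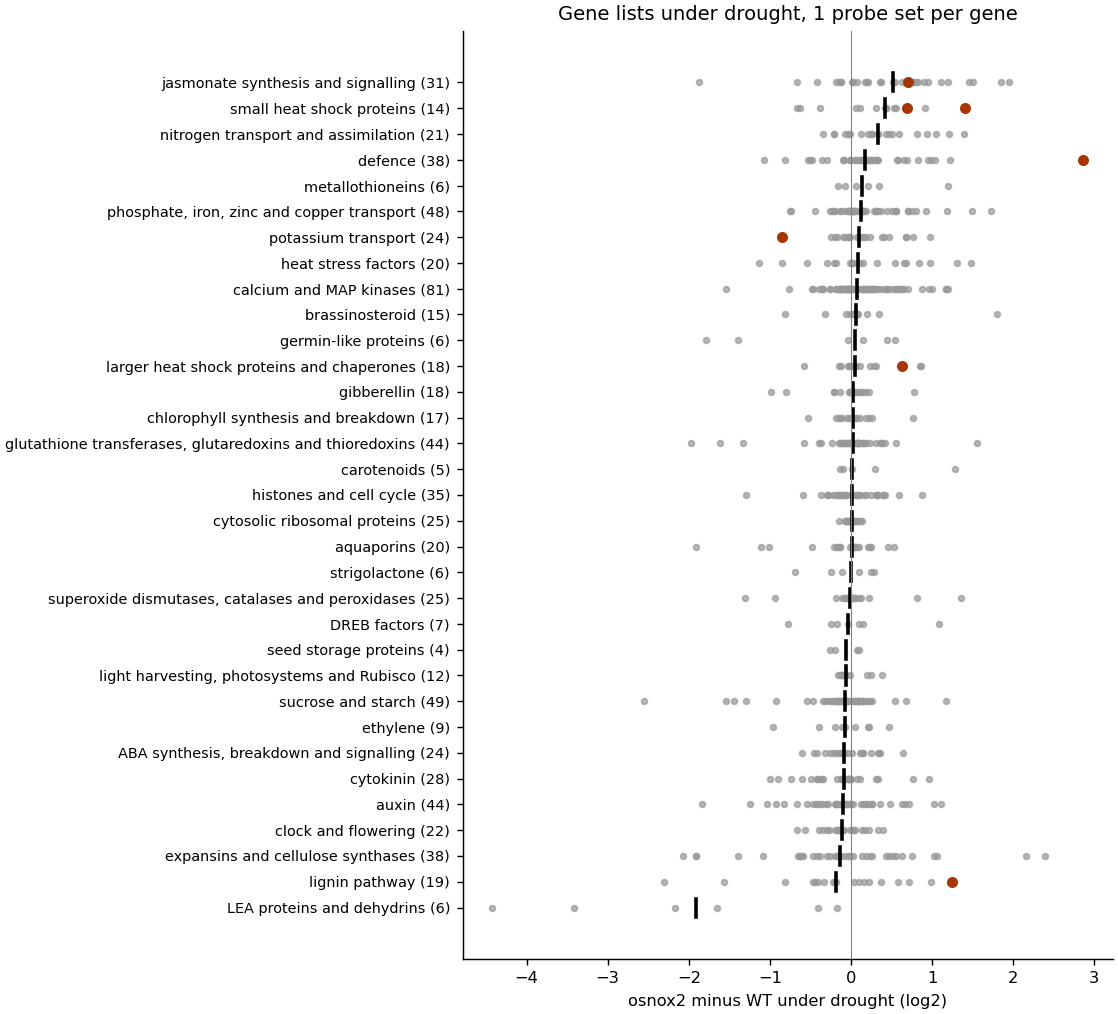
Differences between osnox2 and WT under drought (log2) for the members of the gene lists, 1 point per gene, larger and coloured where called, with a bar at the median of each list and the number of genes tested in parentheses. The LEA and dehydrin list has the lowest median, -1.91, and the jasmonate and small heat shock protein lists have medians of 0.51 and 0.42.

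The list with the lowest median was that of LEA proteins and dehydrins, at -1.91 over 6 measured genes (-2.77 without replicate 2 of osnox2). None of the 6 was called, and none had groups that did not overlap. All 6 differences were negative, from -4.42 to -0.17, while 49.3% of all genes tested had a positive one. RAB21, a dehydrin induced by ABA and drying and chosen after its values were seen, read 1.98, 8.84 and 7.55 in osnox2 and 6.85, 11.77 and 13.03 in WT. The spread within each genotype was as large as the gap between them, and the difference of -4.42 ± 2.13 did not pass the test (adjusted p = 0.510). RAB16B read 0.29, 8.25 and 7.01 against 5.03, 9.79 and 10.96 (-3.41 ± 2.32, adjusted p = 0.653), and LEA19 read 2.15, 9.07 and 6.54 against 6.30, 8.32 and 9.64 (-2.17 ± 1.70, adjusted p = 0.705). Replicate 1 was the lowest array of its genotype for all 3 genes, in osnox2 and in WT. In control plants RAB21 read 1.03 to 2.25 on all 6 arrays, and replicate 1 of osnox2 under drought lay within that range.

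Replicate 2 of the osnox2 drought group stood apart from replicates 1 and 3 for a small set of transcripts. For 22 probe sets the other arrays of the genotypes were at least 2 apart on the log2 scale while replicate 2 lay nearer WT, and 21 of the 22 were higher in WT. The same count was 6 for replicate 1 and 11 for replicate 3 of osnox2, and 30, 17 and 10 for the WT replicates lying nearer osnox2. At a separation of at least 4 it was 7 for replicate 2 of osnox2, 1 for replicate 2 of WT and 0 for the others. LOC4334952 on chromosome 4 read 0.54, 8.17 and 1.16 in osnox2 and 10.61, 10.61 and 10.73 in WT. Replicate 2 was far above its own group yet below every WT array, at 17.9% of the linear WT mean, while replicates 1 and 3 stood at 0.115%. With all arrays the difference was -7.36 ± 1.85 (adjusted p = 0.198), and without replicate 2 it was -9.80 (adjusted p = 0.000424). Replicates 1 and 3 lay far below the array median, where signals are near background, so these sizes and percentages depend on dim values, and with the offset of 64 the difference over all arrays was -3.86 (adjusted p = 0.0665).

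LOC4334900, on the same chromosome and 60 gene models away in the annotation, read 2.31, 11.22 and 3.78 in osnox2 and 13.21, 13.27 and 13.40 in WT. Replicate 2 stood at 23.8% of the linear WT mean, against 0.0933% for replicates 1 and 3. Its difference was -7.52 ± 2.08 (adjusted p = 0.242), or -10.24 without replicate 2 (adjusted p = 0.00198). LOC4324163 on chromosome 1 read 4.47, 7.15 and 3.50 in osnox2 and 9.64, 10.34 and 10.50 in WT, with replicate 2 at 12% of the WT mean and replicates 1 and 3 at 1.42%. Its difference was -5.12 ± 0.86 (adjusted p = 0.0873), or -6.18 without replicate 2 (adjusted p = 0.0149). With the offset of 64 and all arrays the differences were -5.42 for LOC4334900 (adjusted p = 0.162) and -3.46 for LOC4324163 (adjusted p = 0.0286). None of these 3 genes was called on the values as deposited with all 6 arrays, all 3 were called without replicate 2, and LOC4324163 was also called with the offset. The other 7 genes with the widest such separation were LOC4329459, LOC4342716, LOC4334166, LOC4343033, LOC9268308, LOC4335526 and LOC4336657, of which LOC4336657 alone was the higher one in osnox2, at 12.17, 10.06 and 13.67 against 8.87, 9.99 and 8.12. None of these 7 was called with all arrays or without replicate 2 (adjusted p between 0.151 and 0.343 without it). A second probe set of LOC9268308 read 8.27, 8.35 and 8.42 in osnox2 and 8.87, 9.64 and 9.58 in WT, with replicate 2 of osnox2 between replicates 1 and 3.

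The transcripts were also chosen in the control arrays, which hold no drought sample, a reading made after the data were seen. There, 6 probe sets were higher in every WT control array than in any osnox2 control array by at least 4. Under drought all 6 were again higher in WT on average, 3 of them without overlap, and none of the 5 that were tested was called. Replicate 2 of osnox2 was shifted towards WT for all 6, by a median of 6.52 above replicates 1 and 3. The probe set not tested was dim and differed by only -0.40 under drought, with a shift of 0.52. A further 11 probe sets were higher in every osnox2 control array by at least 4. Under drought all 11 were higher in osnox2 without overlap, with a median difference of 6.43, and 9 were called. Replicate 2 was lower than the mean of replicates 1 and 3 for 10 of the 11, by a median of 0.31, and the shifts of the 11 ranged from -1.64 to 0.14. Over the 82 calls, which were chosen with replicate 2 in the fit, replicate 2 was shifted towards WT in 59 and was nearer WT than its own group in none. The median shift over all 82 was 0.16. These 59 are the same probe sets whose difference became larger without replicate 2. The same count was 23 for replicate 1 and 39 for replicate 3 of osnox2.

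**Figure D4:**
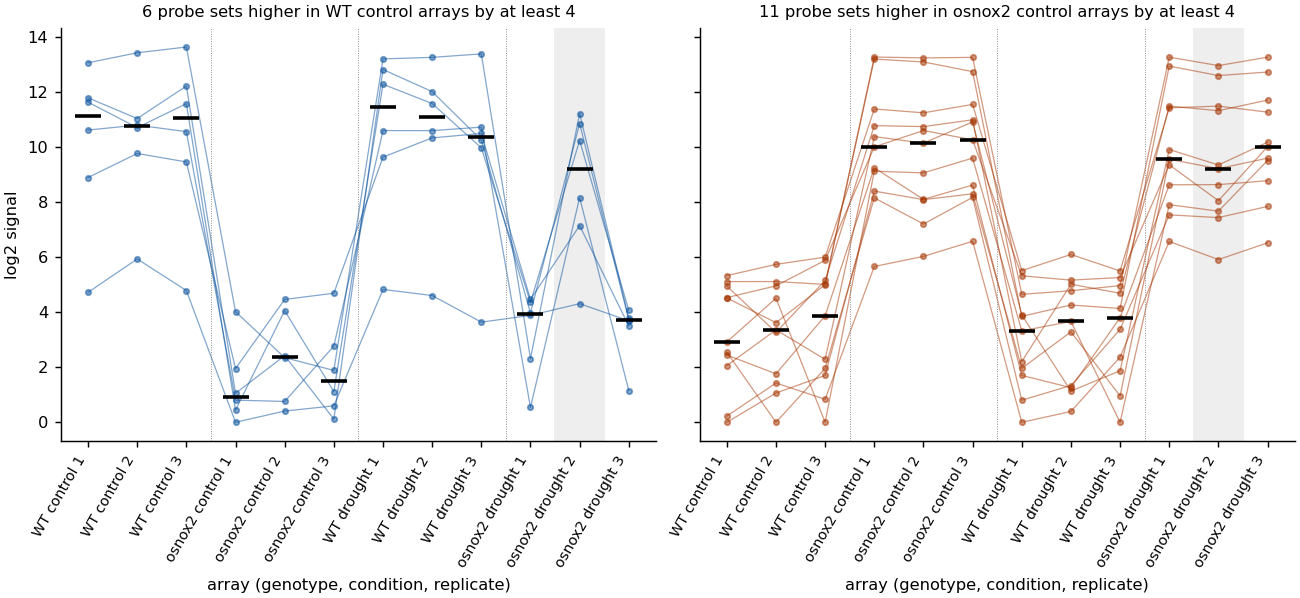
Log2 signal on each of the 12 arrays for the 6 probe sets that were higher in the WT control arrays by at least 4 and the 11 that were higher in the osnox2 control arrays by at least 4; each line is 1 probe set, the bars are medians and replicate 2 of osnox2 under drought is shaded. Replicate 2 of osnox2 under drought lies towards WT for all 6 of the first set, by 0.52 to 8.18 with a median of 6.52. For the second set the median shift is 0.31.

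The genotype difference in control plants came from arrays that the drought test did not use. Of the 82 called probe sets 72 differed in the same direction in control plants (87.8%, against 55.8% of all probe sets tested), and 40 did so without overlap of the control arrays (48.8%, against 5.62%). Separation of the control arrays in either direction was found for 8.43% of the whole set. Among the 59 higher in osnox2 the counts were 54 and 34, and among the 23 lower in osnox2 they were 18 and 6. The control arrays stood in different clock states, with replicates 1 and 2 of osnox2 and replicate 1 of WT apart from the rest. The drought arrays' own clock state was held by 1 osnox2 and 2 WT control arrays and the other state by 2 and 1, so no value within a state has replicates in both genotypes. Within the control arrays of the drought arrays' own clock state 73 of the 82 went in the same direction (89.0%, against 57.9%), and within those of the other state 68 did (82.9%, against 50.5%). In the drought arrays' state these were 55 of the 59 higher in osnox2 (93.2%) and 18 of the 23 lower (78.3%). In the other state they were 55 of the 59 higher (93.2%) but 13 of the 23 lower (56.5%), near the share over all probe sets tested. Among named genes METK3, Pir7b, HSP81-3, HSP18.0, AldC-1 and HAK11 differed in control plants in the drought direction without overlap, by -2.10, 1.74, 1.07, 1.41, 0.68 and -0.20. HSP24.1 and HSP81-1 overlapped between the genotypes in control plants, with differences of 2.65 and 0.79, and within each clock state both were higher in osnox2. Over all control arrays CAD6 and JAZ7 were at -0.05 and -0.38, and within each clock state JAZ7 stayed below 0 and CAD6 above it.

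**Figure D5:**
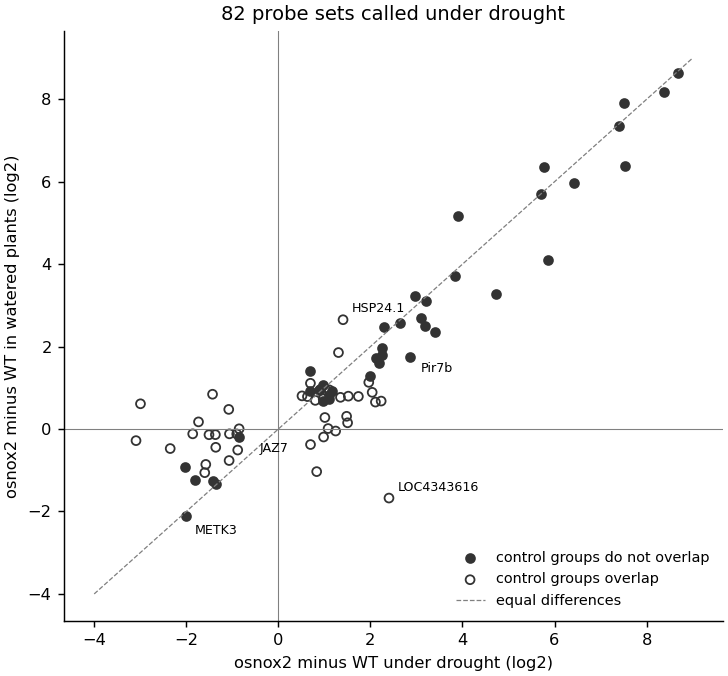
Genotype difference (osnox2 minus WT, log2) of the 82 called probe sets under drought on the horizontal axis and in control (watered) plants on the vertical axis, over all 6 control arrays of both clock states, filled where the control groups do not overlap. Of the points 72 have the same sign on both axes, and METK3, at -2.00 and -2.10, lies near the diagonal, while JAZ7, at 0.70 and -0.38, does not.

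Whether the genotype difference itself differed between drought and control was tested in limma with all 12 arrays. No probe set passed (0.0%), and 955 had an unadjusted p under 0.05 (3.32%). The control arrays of both genotypes hold the different clock states described above. Without the 3 control arrays that stood apart 1 probe set passed, and 2157 had an unadjusted p under 0.05. The smallest p with all arrays belonged to LOC4345657, with a difference of differences of 1.47 ± 0.18 (adjusted p = 0.252). Of the 82 calls, 14 had an unadjusted p under 0.05 in this test, among them JAZ7, HAK11 and LOC4327205. The 82 were chosen on the drought difference that this test also contains, so small p among them were partly fixed by that choice. This count therefore cannot show that their genotype differences depend on drought.

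By position, 11 of the 51 called genes lay on chromosome 1 (21.6%, against 14.8% of the genes tested), 8 on chromosome 4 (15.7%, against 8.59%), 6 on chromosome 9 (11.8%, against 5.39%), 6 on chromosome 7 (11.8%, against 7.68%), 7 on chromosome 3 (13.7%, against 14.1%) and none on chromosome 11 (against 4.36%). LOC4326755 and LOC4326757 on chromosome 1 are neighbours in the annotation, and both were higher in osnox2, by 0.89 ± 0.09 and 1.99 ± 0.24. LOC4334958, also called higher, lies 7 gene models from LOC4334952, and its other, brighter probe set gave 0.35 and was not called. Of the 15 called genes with more than 1 probe set tested, every probe set was called in 3 and went in the same direction in 14.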

How the data were processed

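Total RNA from rice leaves was hybridised to Affymetrix arrays. Signals for 57258 probe sets were deposited on a log2 scale by the authors, with MAS5 named per the submitters' processing notes (version not given in the sources used here). With the log undone, each array had a trimmed mean of 497 or 498, and 996 to 1785 of its probe sets held the lowest value. The number of arrays limits the precision. Residual SDs had a median of 0.2375 (log2), on 4 residual degrees of freedom.

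Apart from 64 reporters, which were left out, a probe set was tested when it exceeded the array median on 3 or more of the 6 drought arrays. This gave 28764 probe sets, of which 17890 match 1 gene (14897 genes, 2063 with a name) through the accessions in the annotation of assembly ASM3414082v1. The other genes are given by locus identifier. The values were not normalized further. Genotype means were fitted to the 6 drought arrays in limma 3.58.1 with R 4.3.3 (lmFit, eBayes with an intensity trend), two-sided, with Benjamini-Hochberg adjustment over all probe sets tested. The difference of genotype differences was fitted to all 12 arrays. Lists use 1 probe set per gene, the one with the highest mean, and are described by counts and medians.

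Named genes are the 10 largest rises and 10 largest falls among called genes with a name, the 6 largest of each among those without, up to 4 called members of each of 34 lists, the NADPH oxidase genes, the smallest p where under 10 named genes were called in a direction, and up to 10 genes for which replicate 2 of osnox2 under drought lay nearer WT. The rises and falls also had to have groups that did not overlap, which held for all 82 calls. The members, lists and rule were chosen with earlier results of these data known. Alternatives were other filters (none, 75th percentile), offsets (16, 64), quantile normalization, centring, no trend, 12 or 9 arrays, a block for the replicate number, a minimum fold of 2 and each array left out. Tested on simulated data of the drought comparison (28764 probe sets, 50 changed per size), the fit recovered 38% of changes of 1 and 82% of changes of 2 (log2). It recovered 4% of changes of 0.5 and 98% of changes of 4. In the same simulation 10 unchanged probe sets were called. Tables and plots were made with matplotlib 3.10.9, pandas 2.3.3 and numpy 2.4.6 under Python 3.11.15.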

Additional observations from a re-analysis of the deposited data

Results flagged for a closer look

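LOC4327914 had a genotype difference under drought that differed from that in control plants, by 6.20 on the log2 scale, in the fit of 9 arrays that leaves out the 3 control arrays standing apart. It read 7.42, 7.06 and 7.45 in osnox2 and 6.63, 7.20 and 7.35 in WT under drought, where the genotypes overlapped. In control plants it read 5.02, 2.19 and 0.32 in osnox2 and 1.59, 6.26 and 6.29 in WT. The value of 6.20 rests on 1 osnox2 control array, the one at 0.32, which was assumed to vary like the other groups. With all 12 arrays the same difference was 2.45 ± 1.87 and did not pass the test.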

How the results depend on the processing

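The count of 82 called probe sets was 50 with the filter at the 75th percentile, 131 with centring on array medians, 15 without the intensity trend, 33 with all 12 arrays in the fit and 194 with 9 arrays. With 1 array left out it ranged from 5 to 76. It stayed within 1.5 times of 82 with no filter, either offset, quantile normalization and a minimum fold of 2. Replicate numbers were shared by the groups, and the labels do not say whether a number marks a shared pot. Residuals of same-numbered arrays of the genotypes correlated at 0.159, -0.101 and 0.197, against -0.246 to 0.095 for different numbers. These few correlations do not settle whether the numbers pair the arrays. The main fit did not use the numbers, and with the replicate block the count was 32. The percent of calls with the same direction in control plants was 93.3 without the trend, 93.9 with 12 arrays, 93.8 with the replicate block and 84.2 to 100 with 1 array left out. The test of the difference of differences called 1 probe set with 9 arrays. The 22 probe sets for which replicate 2 of osnox2 lay nearer WT became 196 with no filter, 7 with the 75th percentile filter, 8 with an offset of 16 and 6 with an offset of 64. Of the differences of single genes none reversed. Counted once for each gene in each setting, a call was lost 62 times and gained 19 times over the other settings. With an array left out it was lost 110 times and gained 4 times. The causes were not tested. With 3 arrays per genotype, changes of 1 on the log2 scale were mostly missed in simulated data, and dim signals carry no detection call.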
